A study of Mus musculus with 24 samples.

Results

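The genes described here are 31 autophagy and lysosome genes of the nCounter Mouse Neuroinflammation panel, taken by symbol from its 757 endogenous genes. They comprised 14 genes of autophagosome formation and cargo recognition and 17 genes of the lysosome and of traffic to it, grouped by function. Brain RNA came from 8 CD1 mouse pups of both sexes at postnatal day 9. In 4 pups (1, 4, 5 and 7) the right common carotid artery was cauterized under isoflurane with bupivacaine and the pups were then kept at 8% oxygen for 30 min, which gave hypoxic-ischemic brain injury (HIBI). The other 4 pups (2, 3, 6 and 8) were sham controls, which had neck surgery under the same drugs but kept the artery intact and stayed in normal oxygen. The right cortex, right striatum/thalamus and right cerebellum were taken 30 min after hypoxia, so each arm held 4 libraries per region and 24 libraries in all. Carotid ligation spares the blood supply of the cerebellum, so that region met low oxygen only, and there was no group with hypoxia alone. Values are in normalized counts of the panel's barcodes, scaled for the size of each library. In all lists of single libraries the sham values are in the order of pups 2, 3, 6 and 8 and the HIBI values in the order of pups 1, 4, 5 and 7.

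Macroautophagy encloses cytoplasm in a double membrane, the autophagosome, which then fuses with the lysosome, where acid hydrolases break the contents down. A kinase complex and a lipid kinase complex start the membrane, a set of conjugating enzymes attaches proteins of the LC3 family to it, and receptor proteins tie cargo to LC3. In neurons, which do not divide, this route is a main way to clear damaged organelles and aggregated protein, and the immature brain is known to engage it after hypoxia-ischemia. Much of its regulation acts on proteins and membranes, which counts of messenger RNA do not measure.

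Total counts per library ranged from 855129 to 1134995, and the negative control probes, which match no mouse transcript, averaged 17.8 to 26.1 counts. Of the members, 29 lay above the negative mean plus 2 SD in all 24 libraries. Calcoco2, which encodes a cargo receptor, lay above it in 0 libraries, with 9 to 34 raw counts, and Ctse, which encodes the aspartic protease cathepsin E, lay above it in 3. Neither gives a usable level here, although both stayed in the tests wherever they passed the count minimum. Among the sham libraries the other 29 members had a median coefficient of variation of 5.03% in the cortex, 3.63% in the striatum/thalamus and 6.01% in the cerebellum. Of the 6 region markers on the panel, Tbr1, a transcription factor of cortical excitatory neurons, stood at 842 to 1064 normalized counts in the cortex and at most 139.7 elsewhere. In the striatum/thalamus 2 of the 6 differed between HIBI and sham, Slc17a6, a glutamate transporter of thalamic neurons (log2 fold change -0.49, edgeR adjusted p = 0.0217), and Eomes, a transcription factor at low counts there (1.23, adjusted p = 0.0237), where 0 of the 6 passed in the other regions. In the striatum/thalamus, HIBI pups 4 and 5 had 3117 and 2396 normalized counts of Ttr, which the choroid plexus makes, where the other 6 libraries had 68.5 to 146.9.

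**Figure D1:**
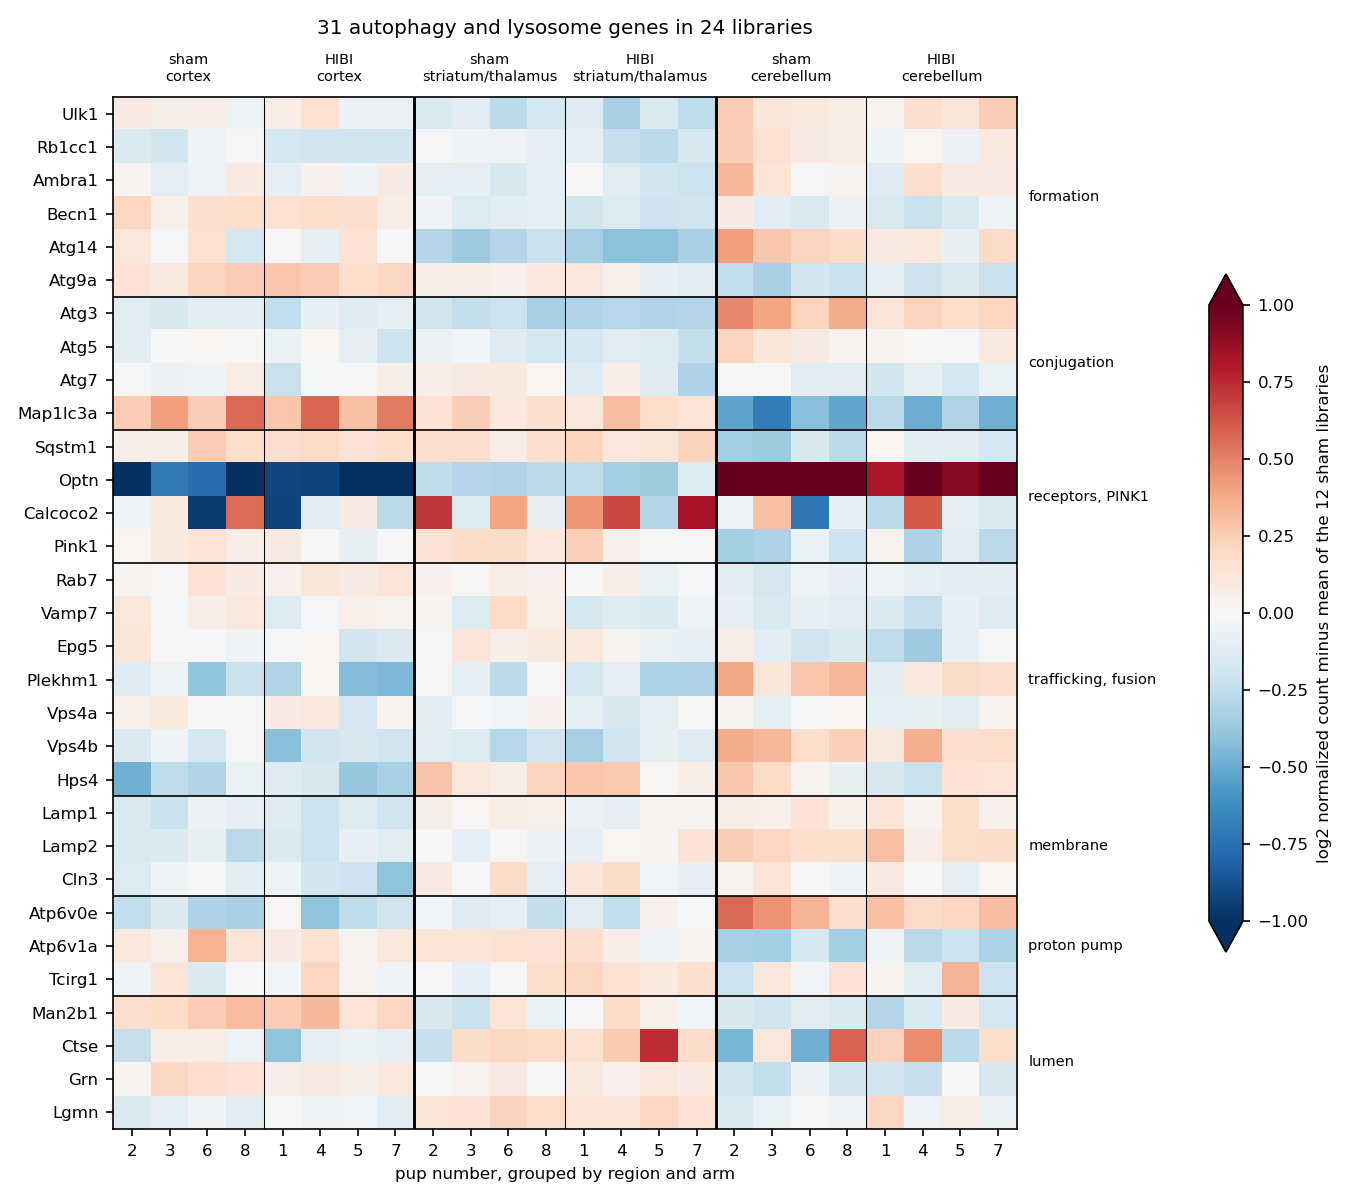
Log2 normalized count of each of the 31 members (rows, by role) in each of the 24 libraries (columns, by region and arm), minus the mean of that member over the 12 sham libraries. Colors are clipped at 1 log2 unit, which Optn exceeds in both directions. The blocks differ mainly between regions and little between sham and HIBI, and the scattered cells of Calcoco2 and Ctse are those of probes near background.

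The first comparison was that of the 3 regions in sham pups, which gives the baseline of these genes in the uninjured P9 brain. Optn, Atg3 and the proton pump subunit Atp6v0e were higher in the cerebellum than in both other regions, while Map1lc3a, Sqstm1, Pink1, Atg9a and the pump subunit Atp6v1a were lower there. Between cortex and cerebellum 21 of 31 members passed the test (edgeR quasi-likelihood, Benjamini-Hochberg adjusted p under 0.05 over all 740 genes tested), 11 of them higher in the cortex and 10 lower. The share of all genes that passed was 67.2%, with 31.5% higher and 35.7% lower, so the members passed about as often as the panel. Between striatum/thalamus and cerebellum 20 members passed, 12 higher and 8 lower, against 64.6% of all genes (32.2% higher and 32.4% lower). Between cortex and striatum/thalamus 9 passed, 4 higher in the cortex and 5 lower, against 40% of all genes (18% and 22%), a smaller share for the members. The pup was a block in these fits, and the 3 comparisons share libraries. Log2 fold changes below are those of the first region named here over the second, so a negative value means a higher level in the second. The fits scaled the 12 sham libraries among themselves, while the printed normalized counts are scaled over all 24 libraries. Fitted log2 differences between regions therefore lie 0.07, 0.11 and -0.04 from those of the printed counts, in the order of the 3 comparisons.

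The sizes of the regional differences were modest. A difference of over 0.5 on the log2 scale was found in 4 of 31 members between cortex and cerebellum, against 43.9% of all genes. It was found in 5 members between striatum/thalamus and cerebellum, against 41.4%, and in 1 member between cortex and striatum/thalamus, against 21.6%. The median absolute log2 difference from the cerebellum was 0.24 for the members in the cortex and 0.25 in the striatum/thalamus, where it was 0.43 and 0.42 over all genes. These shares were compared as a description only. With scaling to the 13 reference genes, which moved the median of all genes from 0.05 to 0.15 in the striatum/thalamus against the cerebellum, 17 members were higher and 5 lower there. The same scaling moved the median between cortex and striatum/thalamus from -0.01 to -0.11, and 11 members were then lower in the cortex and 0 higher, of which 5 were among the 9 above. The split between cortex and cerebellum was the same under both scalings. With the scaling of the printed counts 21 members passed for striatum/thalamus against cerebellum, 10 higher and 11 lower, 18 of them among the 20 above. With it 20 passed for cortex against cerebellum, 10 in each direction, and 8 for cortex against striatum/thalamus, 4 in each direction.

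**Figure D2:**
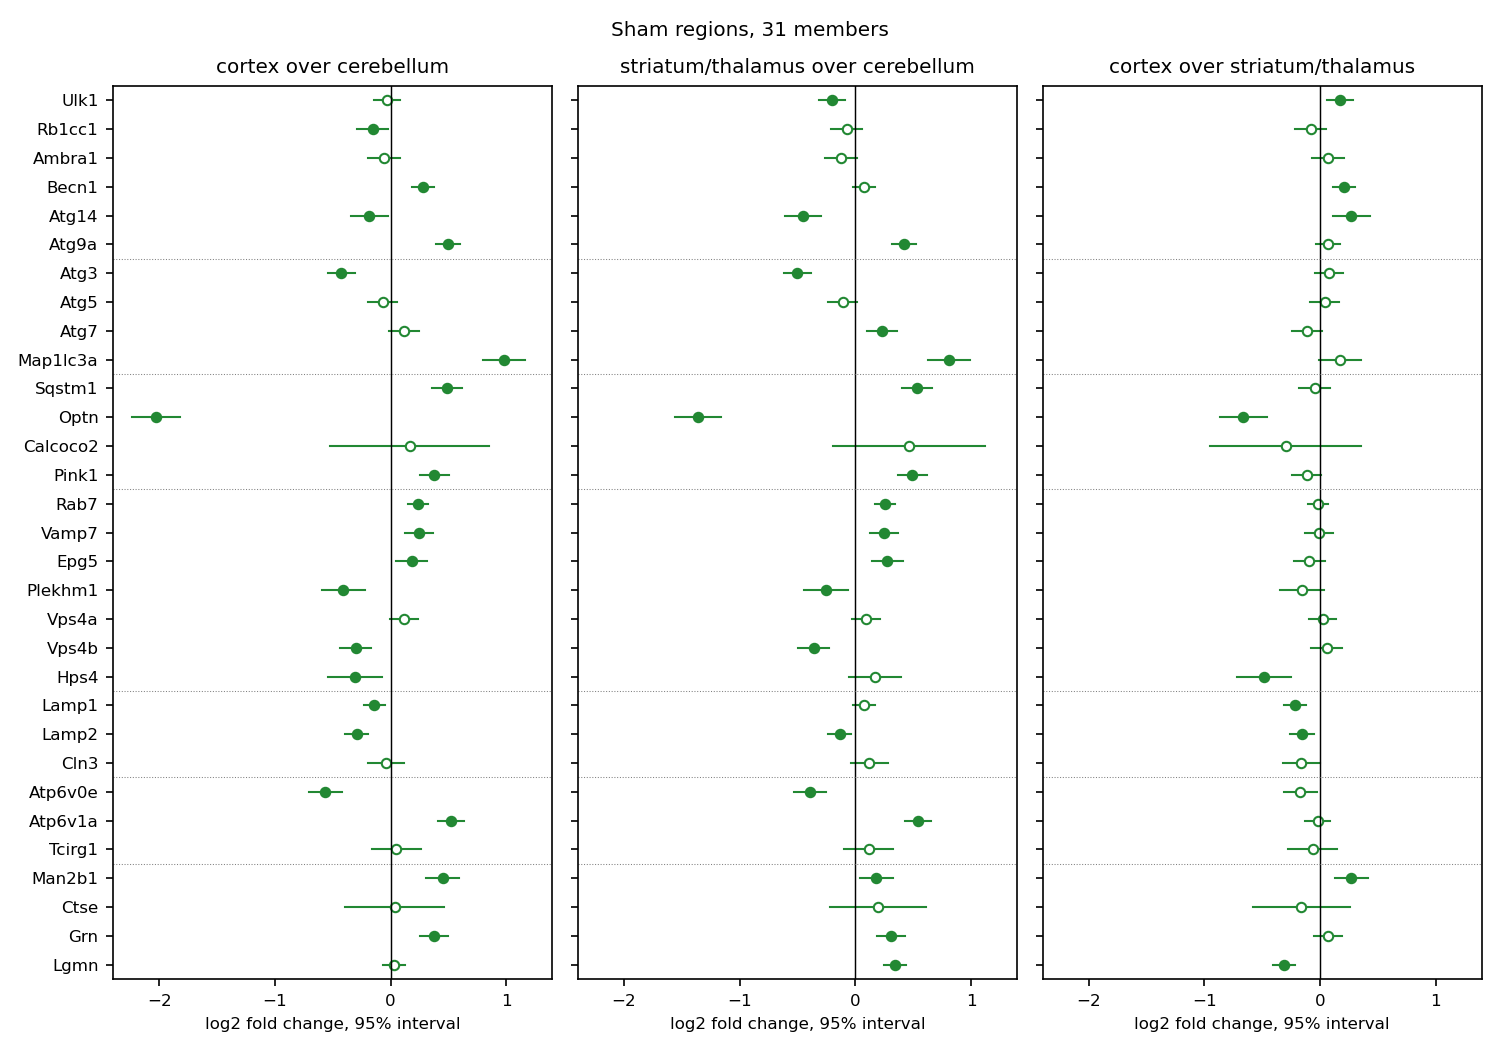
Log2 fold change between sham regions for each member, with its 95% interval from the edgeR fit of the 12 sham libraries. Filled circles passed the test at an adjusted p under 0.05 and open circles did not. Optn lies farthest from 0 in all 3 panels, at -2.03, -1.36 and -0.66, and Map1lc3a lies on the other side at 0.98 and 0.81 against the cerebellum.

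Among the cargo receptors, the difference of Optn, which encodes optineurin, a receptor for ubiquitin-tagged mitochondria, bacteria and aggregates, exceeded that of all other members in each of the 3 comparisons. In sham pups it stood at 369, 507, 489 and 413 normalized counts in the cortex, 696, 677, 675 and 688 in the striatum/thalamus and 2087, 1909, 1785 and 1797 in the cerebellum. The ranges of the 3 regions did not overlap, and the cortex was lowest in each of the 4 pups. The level in the cerebellum was 4.07-fold that in the cortex (log2 fold change -2.03, SE 0.09, adjusted p = 1.84e-08) and 2.57-fold that in the striatum/thalamus (log2 fold change -1.36, SE 0.09, adjusted p = 3.93e-07). The striatum/thalamus was 1.58-fold above the cortex (log2 fold change -0.66, SE 0.09, adjusted p = 0.000193). By size of difference Optn ranked at 28 among the 740 genes between cortex and cerebellum.

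Sqstm1, which encodes the ubiquitin-binding receptor sequestosome, ran the other way. Its sham levels were 3112, 3123, 3566 and 3389.8 normalized counts in the cortex, 3367, 3354, 3153 and 3364 in the striatum/thalamus and 2353, 2341, 2677 and 2489.8 in the cerebellum. Every cerebellar value was below every forebrain value, and cortex and striatum/thalamus overlapped. The difference was 0.49 for the cortex over the cerebellum (SE 0.06, edgeR adjusted p = 2.41e-05) and 0.53 for the striatum/thalamus over it (SE 0.06, adjusted p = 1.46e-05), both on the log2 scale. Pink1, the kinase that marks damaged mitochondria for removal, had sham levels of 2656, 2805, 2889.6 and 2754 normalized counts in the cortex, 2904, 2980.1, 2987 and 2821 in the striatum/thalamus and 2074, 2122, 2507 and 2266 in the cerebellum. It too was lower in the cerebellum of all 4 pups, by a log2 difference of 0.38 (SE 0.06, adjusted p = 0.000121) from the cortex and 0.49 (SE 0.06, adjusted p = 1.97e-05) from the striatum/thalamus.

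The 4 conjugation genes did not share a regional order. Map1lc3a, which encodes the LC3 protein that is coupled to lipid on the growing membrane, stood in sham pups at 4258, 4771, 4234 and 5277 normalized counts in the cortex, 3939, 4225, 3829 and 4001 in the striatum/thalamus and 2476, 2208, 2662 and 2482 in the cerebellum. The ranges of the 3 regions did not overlap, although the difference between cortex and striatum/thalamus had an adjusted p of 0.121. The cortex held 1.97-fold the cerebellar level (log2 fold change 0.98, SE 0.08, adjusted p = 1.42e-06) and the striatum/thalamus 1.75-fold (log2 fold change 0.81, SE 0.08, adjusted p = 7.77e-06). Atg3, the enzyme that transfers LC3 to its lipid, stood at 2548, 2486, 2571 and 2578 normalized counts in the cortex, 2447, 2359, 2394 and 2208 in the striatum/thalamus and 3871, 3652, 3238 and 3600.3 in the cerebellum. Here the cerebellum was above both other regions in every pup, 1.34-fold over the cortex (log2 fold change -0.43, SE 0.05, adjusted p = 2.97e-05) and 1.42-fold over the striatum/thalamus (log2 fold change -0.50, SE 0.05, adjusted p = 1.08e-05). Atg7, the enzyme that activates LC3 before Atg3 acts, was 1.17-fold higher in the striatum/thalamus than in the cerebellum (log2 fold change 0.23, SE 0.06, adjusted p = 0.00471) and passed in no other pair. With the scaling of the printed counts its log2 fold change was 0.13 (adjusted p = 0.0926). Atg5, part of the complex that completes the transfer, passed in 0 of 3 pairs, and with the scaling of the printed counts it was lower in the striatum/thalamus than in the cerebellum (-0.22, adjusted p = 0.00742).

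In the group that starts the autophagosome, Atg9a, which encodes the membrane protein of the vesicles that seed it, had sham levels of 2458, 2380.0, 2590.0 and 2655 normalized counts in the cortex, 2313, 2323, 2293 and 2397 in the striatum/thalamus and 1875, 1773, 1954 and 1902 in the cerebellum. The cerebellum was lowest in all 4 pups, and the log2 difference was 0.49 for the cortex (3.86e-06 as adjusted p) and 0.42 for the striatum/thalamus (1.56e-05). Atg14, the subunit that brings the lipid kinase complex to its site, was lowest in the striatum/thalamus, with 388 ± 15.1 normalized counts (SD, n = 4) against 482 ± 48.5 in the cortex and 573 ± 41.4 in the cerebellum. All 3 of its pairs passed, at log2 differences of -0.18 for cortex over cerebellum, -0.45 for striatum/thalamus over cerebellum and 0.27 for cortex over striatum/thalamus. Becn1, the core subunit of the same complex, was highest in the cortex, by 0.28 over the cerebellum (adjusted p = 0.000166) and 0.21 over the striatum/thalamus (adjusted p = 0.00289). Ulk1, the starting kinase, was lower in the striatum/thalamus than in the cerebellum (-0.20, adjusted p = 0.00399) and the cortex (adjusted p = 0.0176). Rb1cc1, the scaffold of the Ulk1 complex, passed only between cortex and cerebellum (-0.15, adjusted p = 0.0413), and Ambra1, a regulator of Becn1, in 0 pairs. With the scaling of the printed counts both were also lower in the striatum/thalamus than in the cerebellum, Rb1cc1 at -0.18 (adjusted p = 0.0256) and Ambra1 at -0.23 (adjusted p = 0.00992).

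Among the 3 subunits of the proton pump that acidifies the lysosome, 2 had opposite orders. Atp6v1a, the catalytic subunit on the cytoplasmic side, stood in sham pups at 6833, 6574, 8068 and 6922 normalized counts in the cortex, 6944, 6924, 7048 and 7031 in the striatum/thalamus and 5049, 5014, 5622 and 5026 in the cerebellum. The cerebellum was below the forebrain regions in all 4 pups, which held 1.43-fold (cortex, log2 fold change 0.52, SE 0.05, adjusted p = 3.79e-06) and 1.46-fold its level (striatum/thalamus, log2 fold change 0.54, SE 0.05, adjusted p = 3.43e-06). Atp6v0e, a small subunit of the membrane sector, stood at 421, 450.0, 402 and 399 normalized counts in the cortex, 490.2, 457, 465 and 423 in the striatum/thalamus and 736, 680.0, 629.5 and 556 in the cerebellum. The cerebellum was above both regions in every pup, 1.48-fold over the cortex (log2 fold change -0.56, SE 0.06, adjusted p = 1.48e-05) and 1.31-fold over the striatum/thalamus (log2 fold change -0.39, SE 0.06, adjusted p = 0.000245). Tcirg1, a further membrane subunit, had group means of 144 ± 11.3, 147 ± 11.6 and 146 ± 16.3 normalized counts in cortex, striatum/thalamus and cerebellum (SD, n = 4) and passed in 0 of 3 pairs.

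**Figure D3:**
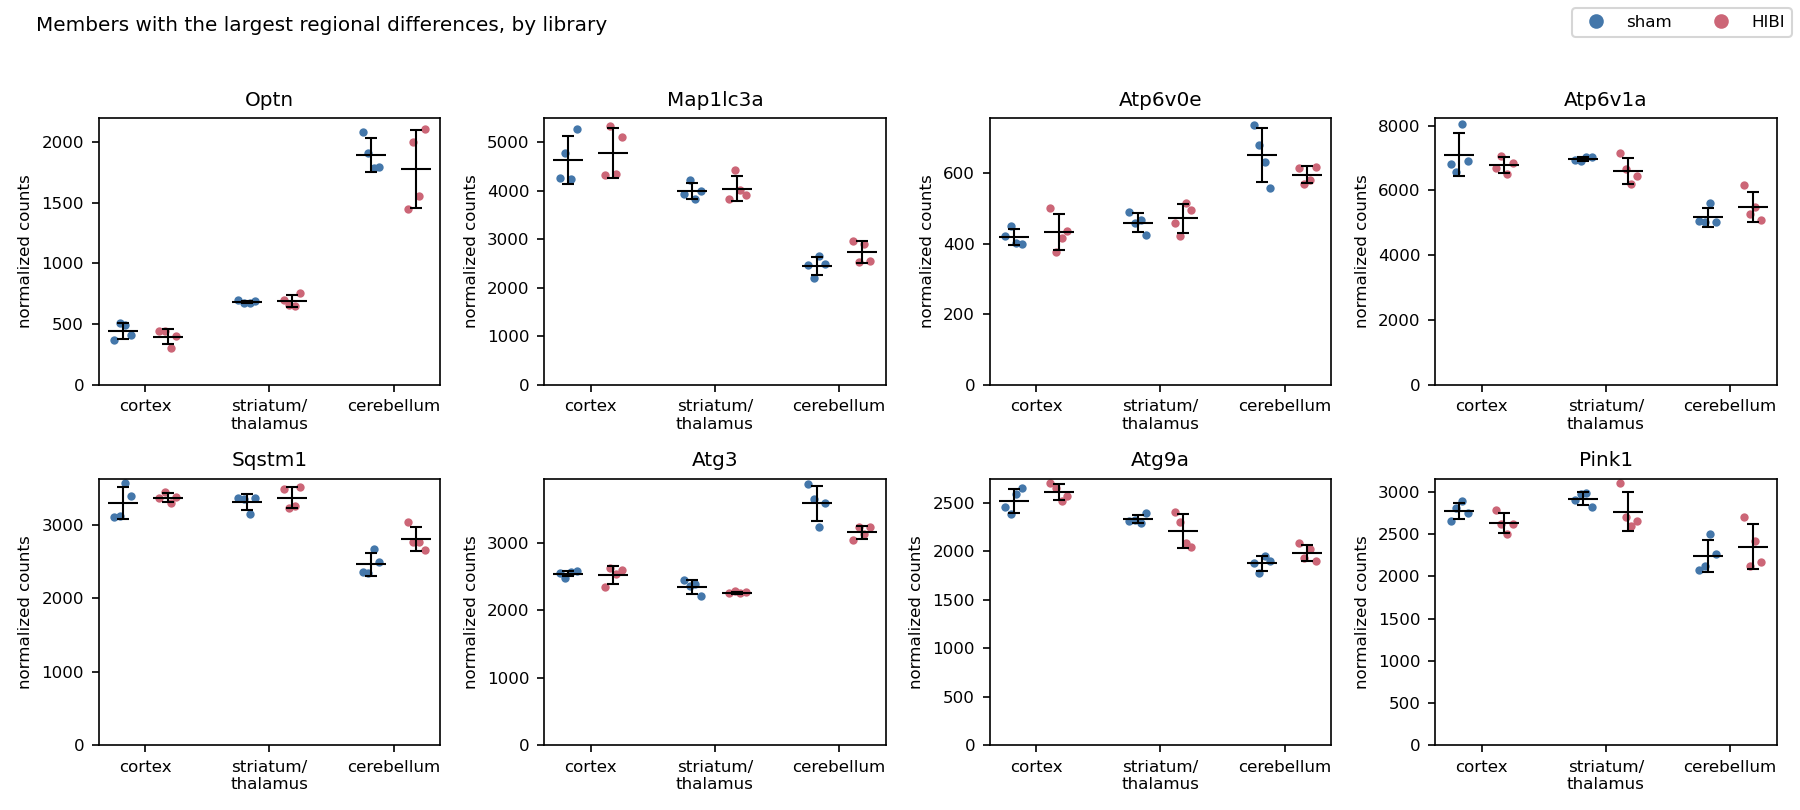
Normalized counts of the 8 members with the largest regional differences in every library, by region, with sham in blue and HIBI in red. Horizontal bars are means and whiskers 1 SD of 4 pups, and each axis starts at 0. In sham pups the cerebellum is highest for Optn, Atp6v0e and Atg3 and lowest for the other 5, and the HIBI means have the cerebellum at the same end for all 8.

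Of the genes of the lysosomal membrane, Lamp2, a main glycoprotein of that membrane, stood in sham pups at 2288, 2296, 2416 and 2112 normalized counts in the cortex, 2534, 2403, 2513 and 2439.9 in the striatum/thalamus and 3013, 2944, 2879 and 2870.1 in the cerebellum. The cerebellar values lay above all others, and the cortex was lowest in each pup. The log2 differences were small, at -0.29 for cortex over cerebellum (adjusted p = 0.000166), -0.14 for striatum/thalamus over cerebellum (0.0222) and -0.16 for cortex over striatum/thalamus (0.0177). With the scaling of the printed counts these were -0.36 (4.68e-05), -0.24 (0.000963) and -0.12 (0.0744). Its relative Lamp1 was lower in the cortex than in the cerebellum (-0.14, adjusted p = 0.0107) and the striatum/thalamus (-0.22, adjusted p = 0.00161). Cln3, the membrane protein lost in juvenile Batten disease, passed in 0 pairs.

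For the contents of the lysosome, Man2b1, the acid alpha-mannosidase, stood in sham pups at 599, 613, 636 and 662 normalized counts in the cortex, 478, 457, 587 and 509 in the striatum/thalamus and 477, 465, 496 and 484 in the cerebellum. The cortex was above the other regions in all 4 pups, by log2 differences of 0.45 from the cerebellum (adjusted p = 7.98e-05) and 0.27 from the striatum/thalamus (adjusted p = 0.00581). The striatum/thalamus also passed as higher than the cerebellum, although their values overlapped. With the scaling of the printed counts that log2 difference was 0.07 (edgeR adjusted p = 0.337). Lgmn, a protease that cuts after asparagine, was highest in the striatum/thalamus, 1.27-fold over the cerebellum (log2 fold change 0.34, SE 0.04, adjusted p = 3.5e-05) and 1.24-fold over the cortex (log2 fold change -0.31, SE 0.04, adjusted p = 0.000172). Grn, the precursor of lysosomal granulins, was lower in the cerebellum than in the cortex (0.37, adjusted p = 0.000105) and the striatum/thalamus (0.31, adjusted p = 0.000491).

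The trafficking genes split as well. Rab7, the small GTPase of late endosomes, Vamp7, a fusion protein, and Epg5, a tether of autophagosomes to lysosomes, were lower in the cerebellum than in both regions, with log2 differences of 0.18 to 0.28. Plekhm1, an adaptor that binds Rab7, and Vps4b, an ATPase that recycles the membrane-cutting ESCRT complex, were higher there than in both, at -0.41 to -0.25. The close relative Vps4a passed in 0 pairs. Hps4, a subunit of a complex for lysosome-related organelles, was lowest in the cortex, with sham levels of 186, 218, 212 and 248 normalized counts in the cortex, 318, 281, 274 and 305 in the striatum/thalamus and 314, 299, 266 and 247 in the cerebellum. Its cortex and striatum/thalamus did not overlap (log2 fold change -0.48, SE 0.11, adjusted p = 0.00358), while its cortex and cerebellum overlapped narrowly (log2 fold change -0.31, SE 0.11, adjusted p = 0.0225).

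By the order of levels, the cerebellum passed the test against both other regions as the highest for 7 members and as the lowest for 10, while 14 showed neither order. Of all 740 genes, 27.7% had the first order and 23% the second, so the members held 22.6% and 32.3%. With scaling to the reference genes the counts were 5 and 11 (24.5% and 24.2% of all genes), with DESeq2's size factors 6 and 10 (27.7% and 22.8%), and with the scaling of the printed counts 8 and 8 (31.9% and 19.6%). In 24 of 31 members at least 1 pair of regions passed, against 78.6% of all genes. The 7 others were Ambra1, Atg5, Calcoco2, Vps4a, Cln3, Tcirg1 and Ctse, of which Ambra1, Atg5, Cln3 and Vps4a passed in a pair under at least 1 other setting.

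The calls with small differences depended on the setting. Of the 21, 20 and 9 calls, 16, 15 and 4 passed under 12 other settings in sham pups. Those lost under at least 1 were Atg14, Epg5, Hps4, Lamp1 and Rb1cc1 for cortex against cerebellum, Atg7, Lamp2, Man2b1, Plekhm1 and Ulk1 for striatum/thalamus against cerebellum, and Atg14, Becn1, Lamp2, Man2b1 and Ulk1 for cortex against striatum/thalamus. Without sham pup 3 the last comparison held 5 calls instead of 9. Optn, Map1lc3a, Atg3, Sqstm1, Pink1, Atg9a, Atp6v1a and Atp6v0e kept their calls against the cerebellum in these 12.

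These regions also differ in their cells, and in bulk tissue fewer cells of a type and less RNA per cell cannot be told apart. The summed level of the 15 oligodendrocyte markers on the panel, of 20 listed, ran from 17022 to 23989 normalized counts in sham cortex, from 30026 to 50289 in sham striatum/thalamus and from 64138 to 91802 in sham cerebellum. The 12 neuronal markers, of 19 listed, summed to 85459 to 93298, 72770 to 77388 and 46941 to 54389 in the same order. The 17 microglial markers, of 21 listed, summed to 8692 to 9854, 6786 to 7732 and 4382 to 5982. The sums of oligodendrocytes, neurons and microglia did not overlap between any of the 3 regions. In these lists 0 markers stayed under the negative mean plus 2 SD in all libraries. The 6 astrocyte markers, of 10 listed, summed to 17942 to 20820, 18199 to 20061 and 26873 to 31167. Ttr, the 1 choroid plexus marker on the panel of 5 listed, ran from 109.1 to 783 in sham cortex, from 68.5 to 146.9 in sham striatum/thalamus and from 138 to 8466 in sham cerebellum. A sum leans on its brightest probes, and single markers of a list went both ways. In the edgeR fits 9 of the 12 neuronal markers passed as higher and 2 as lower in sham cortex than in sham cerebellum. Between striatum/thalamus and cerebellum 7 were higher and 3 lower, and between cortex and striatum/thalamus 7 and 2. In the same order of pairs, astrocyte markers passed as higher and lower at 1 and 4, 2 and 4, and 1 and 3. For microglia the counts were 16 and 1, 14 and 1, and 10 and 0. Those of oligodendrocyte markers were 0 and 15, 1 and 11, and 0 and 15. The part of cell makeup in the regional differences of the members was not tested.

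The 12 HIBI libraries, none of which entered the fits above, held the same regional differences in direction. All 21 members that passed between sham cortex and sham cerebellum had the same sign between HIBI cortex and HIBI cerebellum, and 16 of them passed there. Of all genes that passed in sham, 98% had the same sign and 74.7% passed again with it. Of the 20 for striatum/thalamus against cerebellum all had the same sign and 12 passed (98.5% and 69% of all genes that passed in sham), and of the 9 for cortex against striatum/thalamus all had the same sign and 6 passed (96.6% and 56.4%). The members thus repeated about as the panel did. Optn again differed most, with log2 differences of -2.16 (adjusted p = 3.67e-07), -1.35 (2.44e-05) and -0.80 (0.000652) in the order of the sham comparisons. Map1lc3a was at 0.80 and 0.56 against the cerebellum, Atg3 at -0.32 and -0.48, Sqstm1 at 0.27 and 0.27, and all of these passed, as did both differences of Atp6v1a and of Atp6v0e. Pink1 did not pass between cortex and cerebellum (0.17, adjusted p = 0.0538), nor did Atg9a between striatum/thalamus and cerebellum (0.15, adjusted p = 0.0643).

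Many lysosomal and some autophagy genes carry in their promoters the CLEAR element, to which the transcription factor TFEB binds and whose core is the E-box CACGTG. Promoter sequence (RefSeq, build GRCm38.p6, 250 bases before to 50 bases after the start of the gene) was matched for 24 of the 31 members, and Rb1cc1, Becn1, Map1lc3a, Calcoco2, Vamp7, Epg5 and Ctse were unmatched. CACGTG, which reads the same on both strands, was found in 9 of the 24 (37.5%) and in 8.09% of 27025 genes of the same table. TCACGTG, which contains it and was searched on both strands, was found in 8 (33.3%) and in 4.29%. The members with CACGTG were Atg14, Atg3, Atg5, Atg7, Lamp1, Cln3, Atp6v0e, Atp6v1a and Lgmn, and Atg5 alone of them lacked the longer form. The promoters of 4 members are shown, with CACGTG in capitals, because they set the regional results beside the sequence. Atg3 and Atp6v1a both hold it and have opposite regional orders, Lamp1 holds 4 copies, and Optn, with the largest regional difference of the members, holds none in this window.
Optn (chr2:5064068-5064367, minus strand): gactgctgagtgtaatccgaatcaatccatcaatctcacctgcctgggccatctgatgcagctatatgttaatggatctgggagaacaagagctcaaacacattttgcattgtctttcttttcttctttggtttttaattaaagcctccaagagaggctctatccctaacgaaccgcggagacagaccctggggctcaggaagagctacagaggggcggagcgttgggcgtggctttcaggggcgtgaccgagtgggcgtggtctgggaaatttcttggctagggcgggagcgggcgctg
Atg3 (chr16:45158579-45158878, plus strand): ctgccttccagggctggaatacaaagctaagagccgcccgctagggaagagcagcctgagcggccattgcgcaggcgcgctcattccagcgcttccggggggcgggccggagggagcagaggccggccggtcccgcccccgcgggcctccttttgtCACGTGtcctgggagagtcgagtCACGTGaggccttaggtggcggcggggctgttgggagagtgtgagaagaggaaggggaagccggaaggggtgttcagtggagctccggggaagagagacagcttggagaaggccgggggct
Atp6v1a (chr16:44139210-44139509, minus strand): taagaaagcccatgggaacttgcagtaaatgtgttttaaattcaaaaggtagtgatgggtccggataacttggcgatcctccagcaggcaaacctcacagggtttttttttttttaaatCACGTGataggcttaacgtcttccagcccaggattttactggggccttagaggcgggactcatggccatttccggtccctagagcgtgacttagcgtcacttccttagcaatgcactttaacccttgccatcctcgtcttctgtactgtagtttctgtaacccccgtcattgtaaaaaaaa
Lamp1 (chr8:13158911-13159210, plus strand): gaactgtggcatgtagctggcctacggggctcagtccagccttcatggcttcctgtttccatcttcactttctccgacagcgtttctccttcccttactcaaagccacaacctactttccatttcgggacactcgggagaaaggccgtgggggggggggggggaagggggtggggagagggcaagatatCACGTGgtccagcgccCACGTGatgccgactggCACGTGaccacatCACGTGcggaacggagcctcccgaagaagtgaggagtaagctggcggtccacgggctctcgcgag
In these windows the E-boxes began 94 and 71 bases before the gene start in Atg3, 131 bases before it in Atp6v1a, and 61, 45, 28 and 15 bases before it in Lamp1. Among the 9 genes with CACGTG, Atg14, Atg3 and Atp6v0e were highest in the cerebellum and Atp6v1a was lowest there. A match is a description of the letters and was not tested as a site.

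Within each region, HIBI pups were then set against sham pups to ask which messages differed 30 min after the insult. None of the members passed the test in any region: 0 of 30 in the cortex, where 2.33% of all 731 genes passed, 0 of 31 in the striatum/thalamus, where 2.73% of 732 passed, and 0 of 30 in the cerebellum, where 0.42% of 714 passed. Calcoco2 was under the count minimum in cortex and cerebellum. At an unadjusted p under 0.05 in edgeR there were 0, 3 and 2 members, where 9.44%, 18.3% and 16.4% of all genes reached it. DESeq2 also gave 0 members at an adjusted p under 0.05 in each region, where it passed 3.15%, 6.56% and 2.1% of all genes. HIBI and sham pups did not overlap for 0, 0 and 1 members, against 6.02%, 9.43% and 7.14% of all genes.

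The fits bounded these effects closely for the 29 members above background. Their log2 fold changes ran from -0.16 to 0.06 in the cortex, from -0.19 to 0.14 in the striatum/thalamus and from -0.18 to 0.20 in the cerebellum. In each region the 95% intervals of all 29 lay within a 1.5-fold change in either direction, and those of 28, 29 and 27 lay within 1.3-fold. The widest bounds on the log2 scale were -0.47 and 0.30 in the cortex, -0.37 and 0.33 in the striatum/thalamus and -0.39 and 0.38 in the cerebellum. With scaling to the reference genes all 29 stayed within 1.5-fold, and 25, 29 and 22 within 1.3-fold. These intervals are for single genes and are not adjusted for their number.

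**Figure D4:**
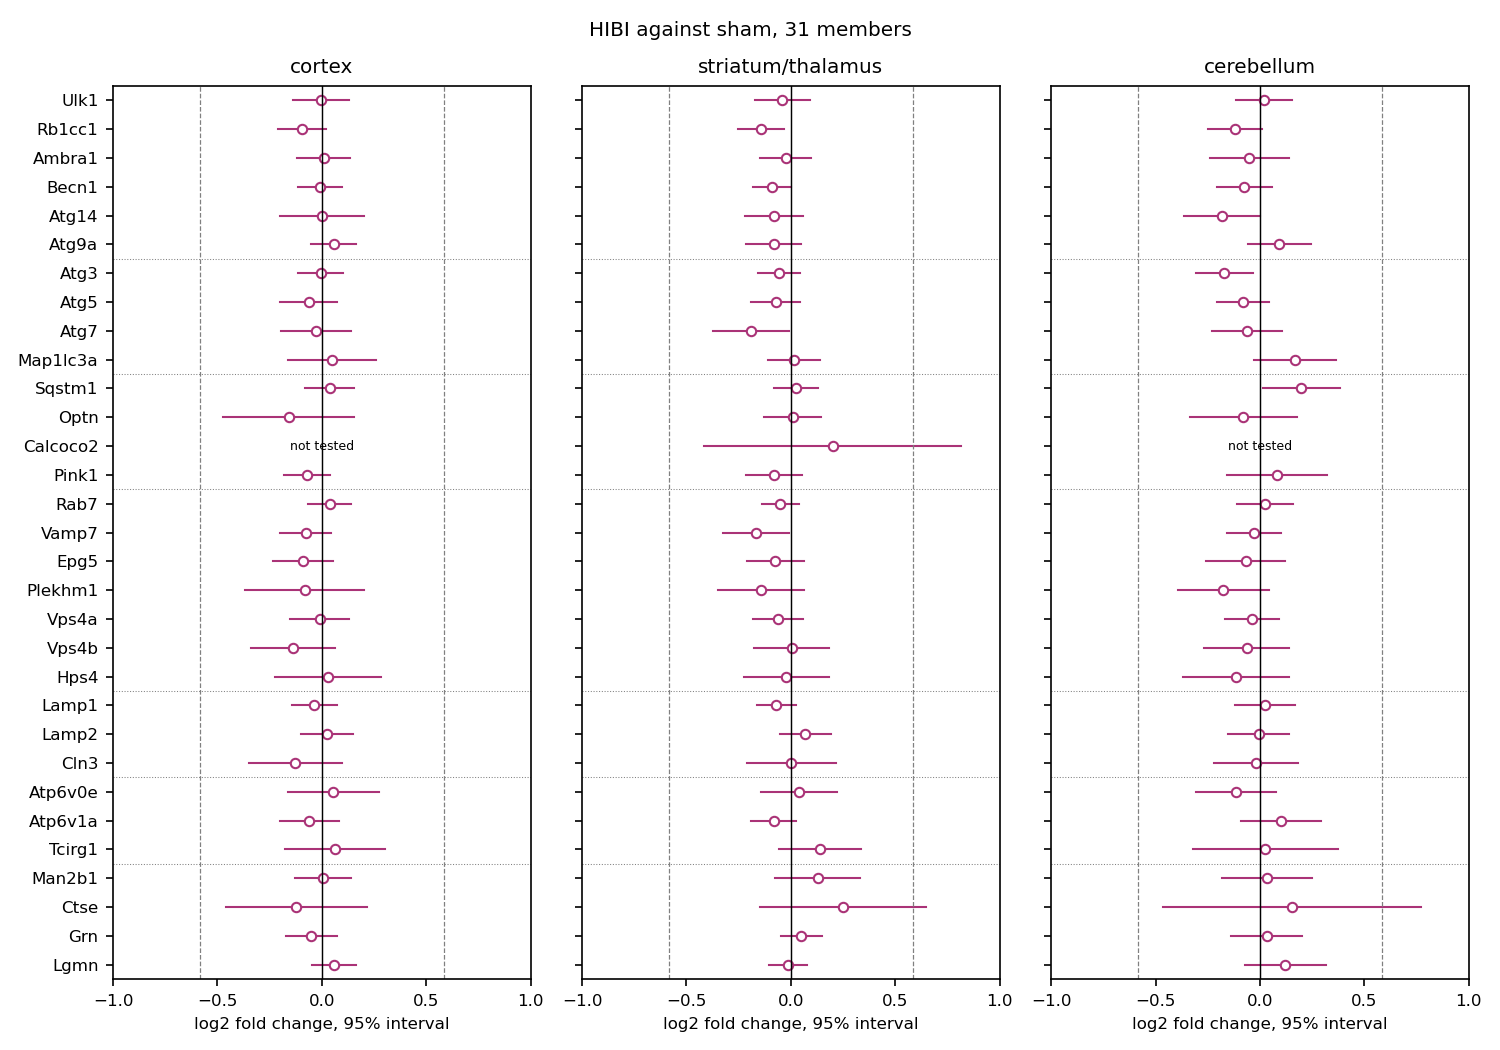
Log2 fold change of HIBI over sham for each member in each region, with its 95% interval from the edgeR fit of that region's 8 libraries. Dashed lines mark a 1.5-fold change, and all circles are open because 0 members passed at an adjusted p under 0.05. Apart from Calcoco2 and Ctse, which are near background, all intervals lie between the dashed lines.

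The members stood lower in HIBI for 19 of 30 in the cortex, 19 of 31 in the striatum/thalamus and 17 of 30 in the cerebellum, where 52.8%, 48.8% and 50% of all genes did. Their median log2 fold change was -0.01, -0.04 and -0.02, against -0.01, 0.0038 and 0.00027 over all genes. Scaling to the reference genes raised the median of all genes to 0.08 in the cortex and 0.12 in the cerebellum, and 5 of 30 members were then lower in each. Relative to the median of all genes, the counts of lower members were 15, 20 and 17 under both scalings. The autophagy genes tested (13, 14 and 13) had medians of -0.01, -0.07 and -0.06, and the 17 lysosome genes -0.04, -0.01 and -0.01.

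By role, the cargo receptors and the kinase Pink1, grouped together (3, 4 and 3 genes tested), had log2 fold changes from -0.16 to 0.04 in the cortex. They ran from -0.08 to 0.20 in the striatum/thalamus and from -0.08 to 0.20 in the cerebellum. Optn was lowest in the cortex, Sqstm1 highest in the cerebellum and Calcoco2, near background, highest in the striatum/thalamus. Those of the 6 formation genes ran from -0.10 to 0.06 in the cortex, from -0.14 to -0.03 in the striatum/thalamus and from -0.18 to 0.09 in the cerebellum. Those of the 4 conjugation genes ran from -0.06 to 0.05, from -0.19 to 0.02 and from -0.17 to 0.17. The 7 trafficking genes lay between -0.14 and 0.04, -0.17 and 0.0048, and -0.18 and 0.02. Thus the receptors with Pink1 and the formation, conjugation and trafficking genes all spanned 0 in cortex and cerebellum. The 3 membrane genes lay between -0.13 and 0.03, -0.07 and 0.07, and -0.02 and 0.02, which made them the narrowest group in the cerebellum. The 3 pump subunits lay between -0.06 and 0.06, -0.08 and 0.14, and -0.12 and 0.10. The 4 lumen genes lay between -0.12 and 0.06, -0.01 and 0.25, and 0.03 and 0.15, with Ctse at the upper end in striatum/thalamus and cerebellum.

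Rb1cc1, the scaffold of the complex that starts autophagosomes, had the smallest p of the members in both forebrain regions. In the cortex it stood at 1838, 1791, 1980.3 and 2051 normalized counts in sham and at 1795, 1793, 1768 and 1780.2 in HIBI pups. The HIBI values lay close together at the bottom of the sham range, and 1 sham value, that of pup 3, lay among them. The log2 fold change was -0.10 (SE 0.05, edgeR adjusted p = 0.683). In the striatum/thalamus it stood at 2013, 1989, 1981 and 1897 in sham and at 1901, 1736, 1699 and 1816 in HIBI pups, so that only HIBI pup 1 and sham pup 8 overlapped. There the log2 fold change was -0.14 (SE 0.05, adjusted p = 0.167). In the cerebellum it was -0.12 (SE 0.06, adjusted p = 0.309). Rb1cc1 was the single member below 0 in all 3 regions under each of the 4 scalings, but the regions come from the same pups and none of its tests passed.

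The other members with the smallest p in the cortex were Vps4b and Pink1. Vps4b stood at 325, 348, 319.7 and 357 in sham and 269, 316, 322 and 313 in HIBI pups (log2 fold change -0.14, SE 0.09, adjusted p = 0.726), and only HIBI pup 5 and sham pup 6 overlapped, narrowly. Pink1 stood at 2656, 2805, 2889.6 and 2754 in sham and 2789.7, 2619, 2498 and 2616 in HIBI pups (log2 fold change -0.07, SE 0.05, adjusted p = 0.757). Its arms overlapped, and with scaling to the reference genes its log2 fold change was 0.020.

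In the striatum/thalamus Vamp7, the fusion protein, stood at 2087, 1863, 2351 and 2119 in sham and 1809, 1861, 1853 and 1978 in HIBI pups. Sham pup 3 lay among the HIBI pups and the other 3 sham pups above them (log2 fold change -0.17, SE 0.07, adjusted p = 0.247). Atg7 stood at 525, 534, 537 and 510.3 in sham and 459, 526, 459.6 and 404 in HIBI pups. The HIBI pups were lower apart from pup 4, which lay within the narrow sham range (log2 fold change -0.19, SE 0.08, adjusted p = 0.249). Pup 4 is also 1 of the 2 with high Ttr. Without both libraries with high Ttr, 0 members and 6.95% of all genes passed in this region, with a smallest adjusted p of 0.0575 among the members. Slc17a6 and Eomes also differed between the arms in this region. Of the 12 neuronal markers 10 were lower in HIBI and 2 higher. Slc17a6 alone of them passed, and 6 had an unadjusted p under 0.05 in edgeR. All 15 oligodendrocyte markers were lower, and 0 passed. Of all genes in this region 48.8% were lower, 2.73% passed and 18.3% had an unadjusted p under 0.05. The part of tissue makeup in the values of Rb1cc1, Vamp7 and Atg7 was not tested.

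In the cerebellum Atg3, the enzyme that puts LC3 on its lipid, stood at 3871, 3652, 3238 and 3600.3 in sham and 3039, 3238, 3131 and 3232 in HIBI pups. This was the 1 member whose arms did not overlap there, by less than 1 count between sham pup 6 and HIBI pup 4. Its log2 fold change was -0.17 (SE 0.06, adjusted p = 0.247). Sqstm1, the cargo receptor, stood at 2353, 2341, 2677 and 2489.8 in sham and 3042, 2765, 2763 and 2657 in HIBI pups. Only sham pup 6 reached into the HIBI range, and the log2 fold change was 0.20 (SE 0.08, adjusted p = 0.257). Atg14 stood at 632, 570.3, 552 and 539 in sham and 504, 509.9, 450.0 and 540.3 in HIBI pups, with HIBI pup 7 inside the sham range (log2 fold change -0.18, SE 0.08, adjusted p = 0.299). A single fit of all 24 libraries shares the spread across regions and has no term for the pup, so it treats the regions of a pup as independent. In that fit Atg3 (-0.18, adjusted p = 0.042) and Sqstm1 (0.19, adjusted p = 0.0493) passed in the cerebellum, where 6.58% of all 745 genes passed, and no member passed in the other regions. The fit by region is the one used throughout, and there neither passed.

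**Figure D5:**
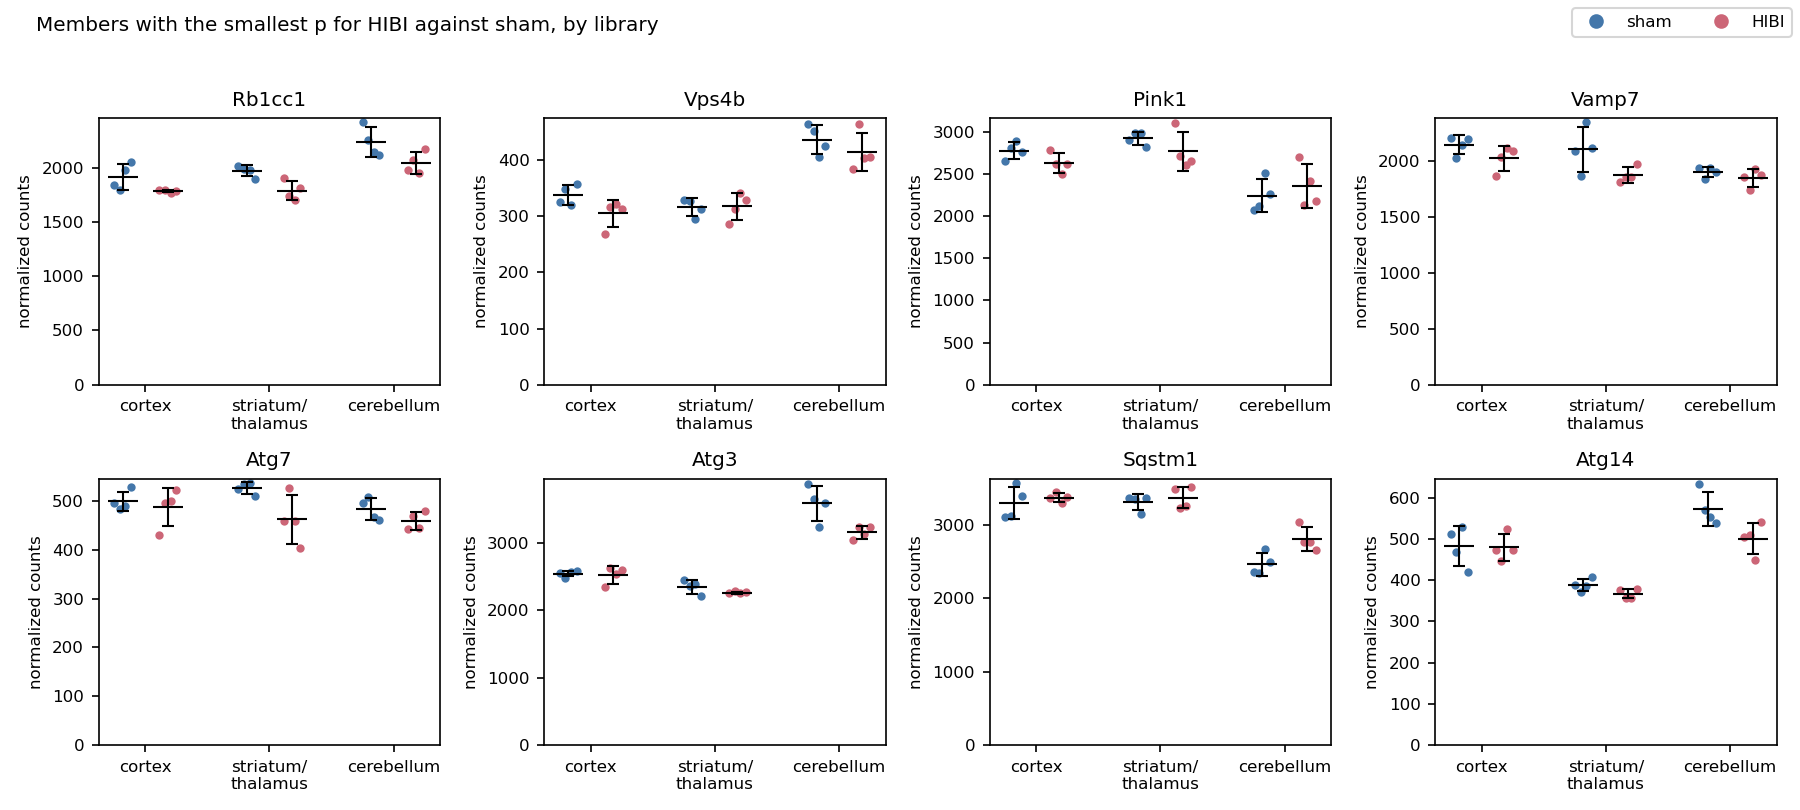
Normalized counts of the 8 members with the smallest p for HIBI against sham in at least 1 region, in every library, with sham in blue and HIBI in red. Horizontal bars are means and whiskers 1 SD of 4 pups, and each axis starts at 0. The arms overlap in every panel and region except Atg3 in the cerebellum.

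Whether the HIBI effect differed between regions was tested with the interaction of region and arm in all 24 libraries. None of 31 members passed for cortex minus cerebellum, for striatum/thalamus minus cerebellum or for cortex minus striatum/thalamus, where 0%, 0.805% and 0% of 745 genes passed. DESeq2 also called 0 members in each, and 0.268%, 1.88% and 0.134% of all genes. At an unadjusted p under 0.05 there were 1, 2 and 0 members, against 10.3%, 13.8% and 6.17% of all genes. Atg3 differed by 0.17 between cortex and cerebellum (SE 0.07, adjusted p = 0.445), where its log2 fold change was -0.0043 in the cortex and -0.17 in the cerebellum. Atg9a (-0.16, SE 0.07, adjusted p = 0.314) and Atp6v1a (-0.17, SE 0.08, adjusted p = 0.347) were the 2 for striatum/thalamus minus cerebellum.

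The panel holds further genes of the same routes outside the 31. The 7 of mitophagy, stress and autophagy control described here were Bnip3 and Bnip3l, receptors on the mitochondrial membrane, Bcl2, which binds Becn1, the stress proteins Sesn1 and Sesn2, Hmgb1 and the kinase Dapk1. The 5 on a second list, drawn up for the lysosome, were the cathepsins Ctsf, Ctss and Ctsw, and Cd68 and Trem2, both of microglia and macrophages. A place on this list does not make each of them a lysosomal protein. In edgeR 0 genes of either list passed for HIBI against sham in any region, and at an unadjusted p under 0.05 there were 1, 1 and 0 of the 7 and 0, 1 and 3 of the 5 in cortex, striatum/thalamus and cerebellum, where 9.44%, 18.3% and 16.4% of all genes reached it. The 1 in the cortex was Hmgb1, a nuclear protein that binds Becn1 in the cytoplasm, with 3969.7, 4159, 4194 and 4121 normalized counts in sham and 3616, 3872, 3687 and 3956 in HIBI pups (log2 fold change -0.11, SE 0.05, adjusted p = 0.453), and its arms did not overlap. The smallest p in the striatum/thalamus was that of Sesn1, at 563, 535, 549 and 534 normalized counts in sham and 708, 559.9, 667 and 701 in HIBI pups (log2 fold change 0.27, SE 0.08, adjusted p = 0.12). Cd68 followed there with a log2 fold change of 0.33 (adjusted p = 0.181). In the cerebellum the values were -0.16 for Ctsf (adjusted p = 0.257), 0.41 for Ctss (adjusted p = 0.273) and 0.21 for Cd68 (adjusted p = 0.299), and the arms of Ctss and Cd68 did not overlap there. Of all genes tested, 6.02% had arms that did not overlap in the cortex and 7.14% in the cerebellum. Ctss and Cd68 are also on the list of 17 microglial markers and enter its sum. That sum ran from 5731 to 7077 normalized counts in HIBI cerebellum and from 4382 to 5982 in sham. There 15 of the 17 were higher in HIBI and 2 lower, where 50% of all genes were lower, and 0 passed. Trem2, on the same list, had a log2 fold change of -0.0075 in the cerebellum (edgeR adjusted p = 0.975). In the cortex 12 of the 17 were higher and 5 lower (52.8% of all genes lower), and 1 passed (2.33% of all genes). In the striatum/thalamus 13 were higher and 4 lower (48.8% of all genes lower), and 0 passed. Of the 15 oligodendrocyte markers 14 were higher in HIBI cortex, 0 in HIBI striatum/thalamus and 15 in HIBI cerebellum, and 0 passed. The part of cell makeup in these values was not tested.

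Between sham regions these genes passed alongside 67.2%, 64.6% and 40% of all genes. Of the 7, 6 passed between cortex and cerebellum, 7 between striatum/thalamus and cerebellum and 5 between cortex and striatum/thalamus. Of the 5 on the second list, 5, 3 and 1 passed. Dapk1 was 1.43 higher on the log2 scale in cortex than in cerebellum (adjusted p = 9.55e-08), and Sesn1 was at -1.31 in the striatum/thalamus against the cerebellum (adjusted p = 4.3e-07).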

How the data were processed

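RNA of 3 right-hemisphere regions of 8 pups was measured on a panel of 784 probes (757 endogenous genes, 13 reference genes, 6 positive and 8 negative controls), whose barcodes are counted without amplification. The deposited values were raw counts per probe for each library, and the deposited class names of the probes told genes from controls. The authors' normalized group means, ratios and p-values, made in nSolver, were not used.

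The software was R 4.3.3 and its packages DESeq2 1.42.0, edgeR 4.0.16 and limma 3.58.1. Endogenous genes with at least 20 counts in at least 4 fitted libraries were kept and scaled with TMM, and no background was subtracted, which compresses the folds of dim genes. HIBI and sham were compared within each region, sham regions in the 12 sham libraries with the pup as a block, and the difference of HIBI effects in all 24 libraries with the pup as a block. All tests were two-sided edgeR quasi-likelihood F tests, adjusted by Benjamini-Hochberg over all genes tested, and SEs and 95% intervals come from these fits. The regions of a pup are paired, being of the same animal: residuals of the same pup correlated positively in 22 of 24 pairs (median r 0.21), against 26 of 72 pairs of different pups (median -0.08). Residuals were taken from the mean of each group of 4, which by itself draws the values of different pups below 0, so these are not an independent comparison. Normalized counts are counts over the TMM-scaled library size across all 24 libraries, while each fit took TMM factors from its own libraries. Across genes, r was 0.975 to 0.994 in the 36 pairs of replicate libraries, and every pair differed by more than counting error. Levels of different genes are not compared, since probes differ in efficiency.

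The text gives every library for the 3 members with the smallest p in each HIBI comparison and, for sham regions, for the 8 with the largest difference and at least 1 per role. The members and lists were chosen with earlier results of these data known. Some genes of the panel outside the members are not reported here. The scripts were tested on simulated data. Alternatives were DESeq2 size factors, reference-gene scaling, no filter, background subtraction, DESeq2, limma-voom, no block and 1 fit of all libraries. Others left out each pup or both HIBI striatum/thalamus libraries with high Ttr. Fits with Uty as a covariate for sex and with TMM factors from all 24 libraries were added after seeing the data, as was the repeat of the regional fits in HIBI pups. Uty reached 200 counts in 1 sham pup and 2 HIBI pups, so sex read from this gene was split unevenly between the arms.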

Additional observations from a re-analysis of the deposited data

Results flagged for a closer look

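In 2 of 96 groups of 4 libraries, over 16 members, 1 library lay far from the other 3 by Dixon's criterion, which chance meets in about 1 in 20 groups. Sqstm1 was at 3152.75 normalized counts in the striatum/thalamus of sham pup 6 and at 3354 to 3367 in the other 3 sham pups. Atp6v1a was at 5621.56 in the cerebellum of the same pup and at 5014 to 5049 in the others.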

How the results depend on the processing

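For HIBI against sham the counts of members that passed were 0 under every alternative, those that left out a pup included, with 1 exception. In 1 fit of all 24 libraries, which had no term for the pup, 2 members passed in the cerebellum, Atg3 and Sqstm1. So did 49 of 745 genes (6.58%) against 3 of 714 (0.42%) in the fit by region. The interactions gave 0 members throughout. Pink1 in the cortex changed sign with reference-gene scaling, from a log2 fold change of -0.07 to one of 0.020. For the sham regions, leaving out 1 pup gave 16 to 19 calls for cortex against cerebellum, 17 to 19 for striatum/thalamus against cerebellum and 5 to 8 for cortex against striatum/thalamus, the 5 without sham pup 3. Without the replicate block that pairs the regions of a pup, the regional counts were 21, 20 and 9, as with it. Of the named members' values under the alternatives, 153 of HIBI against sham kept their side of the threshold and direction, 2 newly passed and 1 changed sign. The 50 regional calls under 12 settings in sham pups gave 600 outcomes, of which 546 passed and 54 did not, and members without the call newly passed in 19. In HIBI pups, which are other animals, 34 of the 50 passed. The causes were not tested. Precision is limited by 4 pups per group and, for Calcoco2 and Ctse, by counts near the negative controls.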
